A study of Aquarana catesbeiana with 18 samples.

Results

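The receptors of pigment cells and the ligands that act on them were followed in albino and wild-type American bullfrogs (Aquarana catesbeiana). The set holds 9 of the 24636 genes in the deposited tables, taken by name, and each was found as 1 row under its own symbol. They are POMC, ASIP, MC1R and MGRN1 of the melanocortin system, KITLG and KIT, EDN3 and EDNRB, and the neuregulin receptor ERBB3. RNA sequencing was run on albino and wild-type skin, liver and eyes, and the labels give each library by its genotype, its tissue and a replicate number. The 6 groups are albino skin, wild-type skin, albino liver, wild-type liver, albino eyes and wild-type eyes, with 3 libraries each. The labels name no allele behind the albino genotype, no age, sex or treatment, and do not say whether the libraries of a group came from separate animals. The p-values therefore measure the spread between these libraries, which may be technical.

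Pigment cells arise from the neural crest and depend on signals from the cells around them. Peptides cut from the precursor POMC bind MC1R, a receptor that raises cyclic AMP and favours eumelanin, while ASIP blocks the same receptor. KITLG acts on the receptor tyrosine kinase KIT and EDN3 on EDNRB, both of which support the survival and spread of pigment cell precursors in mice. ERBB3 is needed for pigment cell precursors and glia on peripheral nerves in zebrafish, and MGRN1 is a ubiquitin ligase whose loss darkens the coat of mice.

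Counted reads per library lay between 34.3 and 39.2 M over the 18 libraries, and 18080 to 20859 genes had a count. Levels between genes and tissues are given as FPKM, the deposited count divided by gene length in kilobases and by the counted reads of the library in M. Differences within a tissue are given as CPM, the count per M reads of the library, scaled by the trimmed mean of M values (TMM), as log2 differences with their standard error (SE). Their adjusted p comes from edgeR's quasi-likelihood test with Benjamini-Hochberg adjustment over all tested genes, and a gene passed at 0.05. The tissues held the markers of their own cell types. Hepatocyte markers summed to 107398 to 180460 CPM in albino liver and 92109 to 105676 CPM in wild-type liver, and keratinocyte markers to 2907 to 5515 CPM in albino skin and 2676 to 4317 CPM in wild-type skin. Lens markers stood apart within albino eyes. They summed to 19.6, 7.02 and 34639 CPM in albino eyes 1, 2 and 3, against 55482 to 110216 CPM in wild-type eyes.

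The ligand precursor POMC was nearly silent in the 3 tissues. It had 0 counts in 17 of 18 libraries and 2 counts in albino eyes 2, or 0.0430 FPKM. A count of 0 over 3 libraries allows up to 0.0274 CPM in albino skin and 0.0275 CPM in wild-type skin, for counting error only. No difference in POMC was detectable at this depth. Markers of the pituitary, where POMC is made in quantity, were also near 0 in skin, at 0.0510 to 1.03 CPM in albino and 0.243 to 0.585 CPM in wild-type libraries. In liver they summed to at most 0.0527 CPM in albino and 0.318 CPM in wild-type libraries. In eyes the sum was higher, at 8.98 to 13.0 CPM in albino and 7.79 to 8.27 CPM in wild-type libraries. The hormone subunit CGA alone had 7.39 to 12.2 CPM in albino eyes and 6.08 to 7.03 CPM in wild-type eyes.

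The other members split by tissue. EDN3 averaged 2.51 ± 0.80 FPKM in albino skin and 2.48 ± 0.70 FPKM in wild-type skin (SD, n = 3 each), and 1.95 ± 0.72 FPKM in albino eyes and 2.04 ± 0.19 FPKM in wild-type eyes. It had 0 counts in all 6 liver libraries. Set against a floor of 3 counts over the liver group, EDN3 was at least 347-fold higher in albino skin, 269.9-fold higher in albino eyes, 340.1-fold higher in wild-type skin and 279-fold higher in wild-type eyes.

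Its receptor EDNRB was highest in liver among wild-type tissues, with 11.0 ± 1.2 FPKM in liver, 5.26 ± 0.15 FPKM in eyes and 0.0773 ± 0.0773 FPKM in skin. Among albino tissues it was highest in eyes, with 6.04 ± 0.32 FPKM, against 4.43 ± 0.74 FPKM in liver and 0.453 ± 0.760 FPKM in skin. In the skin libraries the receptor was counted only 5, 293 and 1 times in albino skin 1, 2 and 3 and 15, 1 and 35 times in wild-type skin 1, 2 and 3. EDN3 was thus counted in every skin library, where EDNRB was mostly close to 0. In liver EDN3 had no count while EDNRB was present in both genotypes, and eyes held both genes. Skin did not lack endothelin receptors. EDNRA, another one, averaged 6.98 ± 2.62 FPKM in albino skin and 5.55 ± 3.43 FPKM in wild-type skin.

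MC1R averaged 1.96 ± 1.49 FPKM in albino skin and 3.78 ± 1.48 FPKM in wild-type skin, and 0.224 ± 0.082 FPKM in albino eyes and 0.688 ± 0.144 FPKM in wild-type eyes. Liver held 1 MC1R count, in albino liver 2, and 0 in the other 5 libraries. The antagonist ASIP averaged 1.02 ± 0.76 FPKM in albino skin and 0.190 ± 0.134 FPKM in wild-type skin, 1.27 ± 0.60 FPKM in albino eyes and 0.588 ± 0.250 FPKM in wild-type eyes, and had 0 counts in liver. MC1R was at least 297-fold higher in wild-type skin and at least 54.1-fold higher in wild-type eyes than the liver floor, and ASIP at least 14.7-fold and 45.5-fold higher in the same tissues.

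KIT and KITLG were both highest in skin. KIT averaged 14.3 ± 4.2 FPKM in albino skin and 8.45 ± 1.33 FPKM in wild-type skin, 6.50 ± 0.77 and 4.23 ± 0.36 FPKM in albino and wild-type eyes, and 1.76 ± 0.21 and 2.18 ± 0.12 FPKM in albino and wild-type liver. KITLG averaged 5.58 ± 2.14 FPKM in albino skin and 6.17 ± 3.49 FPKM in wild-type skin, 2.59 ± 0.50 and 2.06 ± 0.25 FPKM in albino and wild-type eyes, and 0.261 ± 0.043 and 0.256 ± 0.030 FPKM in albino and wild-type liver. Both genes therefore ranked skin, eyes, liver by FPKM in either genotype.

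ERBB3 averaged 3.14 ± 0.82 FPKM in albino skin and 4.54 ± 3.87 FPKM in wild-type skin, 1.04 ± 0.25 and 0.762 ± 0.154 FPKM in albino and wild-type eyes, and 0.288 ± 0.073 and 0.538 ± 0.257 FPKM in albino and wild-type liver. MGRN1 averaged 1.69 ± 0.54 and 1.52 ± 0.74 FPKM in albino and wild-type skin, 3.19 ± 0.48 and 1.79 ± 1.27 FPKM in albino and wild-type eyes, and 0.772 ± 0.120 and 0.957 ± 0.193 FPKM in albino and wild-type liver. The plot of levels by library shows these values with the single libraries.

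**Figure D1:**
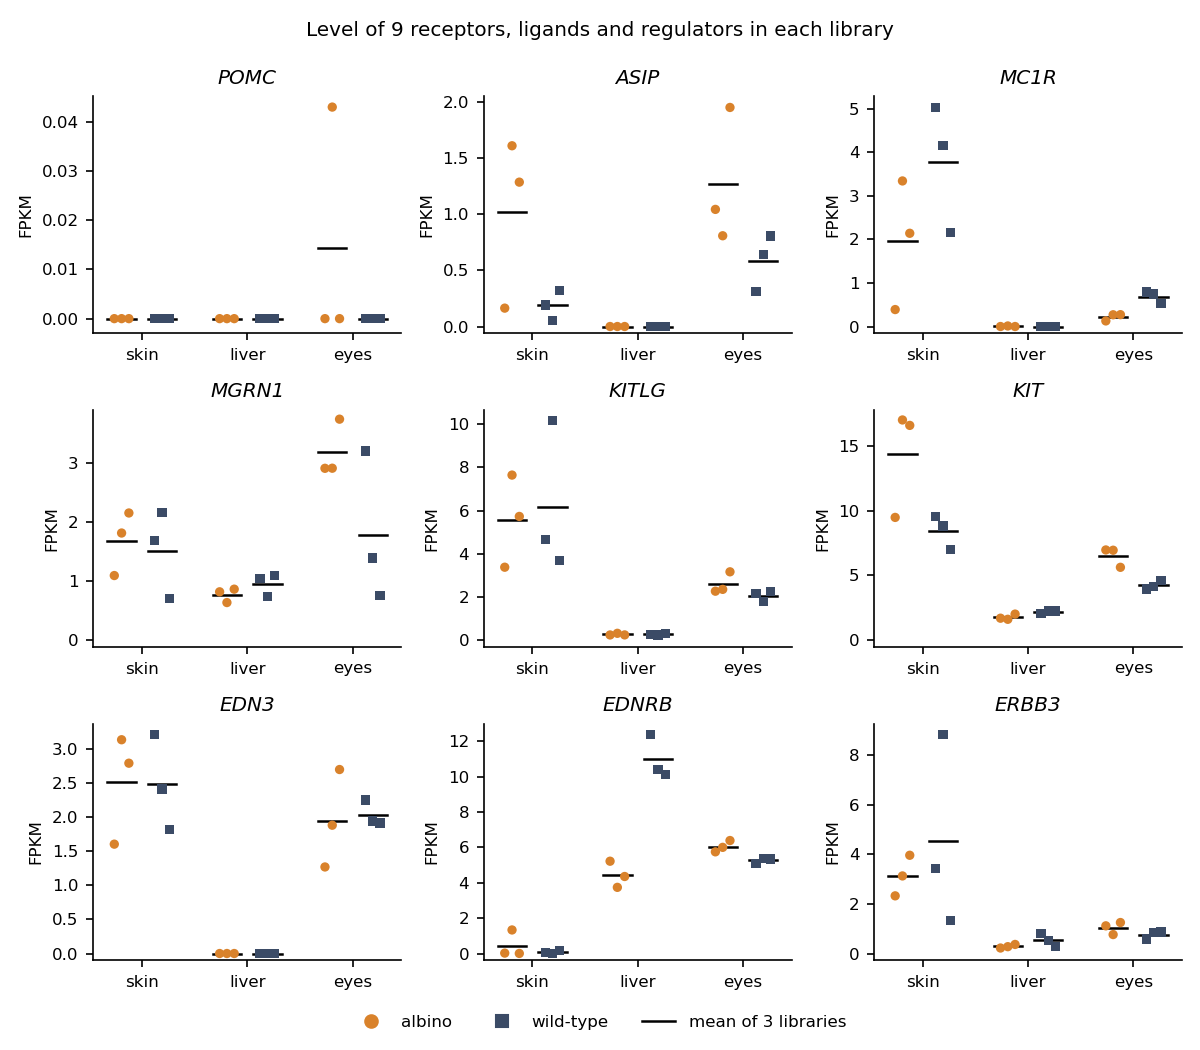
Level of each of the 9 genes in FPKM (vertical axis, linear, its own range in each panel) in the 3 libraries of each group, albino as circles and wild-type as squares, with the mean of 3 libraries as a bar. EDN3, ASIP and MC1R are at or near 0 in liver, EDNRB is near 0 in skin apart from 1 albino library at 1.33 FPKM, and KIT and KITLG are highest in skin.

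The differences between wild-type tissues were tested pairwise. Between wild-type skin and liver 7519 of 16919 genes passed, or 44.4%, and 6 of 7 tested members did. Between wild-type eyes and liver 68.9% of genes passed and 5 of 8 members, and between wild-type eyes and skin 55.8% and 5 of 8. MC1R and EDN3, and ASIP in eyes, entered the comparisons with liver through the other tissue alone. EDNRB, with 15, 1 and 35 counts in wild-type skin, entered both comparisons with skin through liver or eyes alone, and ASIP entered that of eyes with skin through eyes alone. Such genes had to differ to be tested, so these counts of members are a description and no support. The share of called genes that were higher was 56.9% under TMM and 83.4% with library totals for skin against liver, and 55.9% and 79.1% for eyes against liver.

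KITLG was higher in wild-type skin than in liver by 3.65 ± 0.37 on the log2 scale (edgeR adjusted p = 2.27e-04) and KIT by 1.04 ± 0.16 (adjusted p = 0.00164). ERBB3 was higher by 2.06 ± 0.66 (adjusted p = 0.0386), a call that was kept without wild-type liver 1 or wild-type skin 3 and lost without each of the other 4 libraries. The difference was 1.196 without wild-type skin 2. The fitted log2 difference of EDNRB was -7.94 ± 0.99, given as a description since its skin counts were too few to pass the filter.

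In wild-type eyes against skin, the fitted log2 difference of EDNRB was 5.88 ± 0.89, again as a description. MC1R was lower (-2.51 ± 0.33, adjusted p = 6.89e-04), as were ERBB3 (-2.58 ± 0.60), KITLG (-1.65 ± 0.34) and KIT (-1.09 ± 0.17), with edgeR adjusted p of 0.00940, 0.00511 and 0.00164. EDN3 (-0.36 ± 0.21), ASIP (1.45 ± 0.79) and MGRN1 (0.15 ± 0.52) did not pass, so for these the order of eyes and skin is not resolved beyond the spread.

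In wild-type eyes against liver, KITLG was higher by 1.99 ± 0.16 and EDNRB lower (-2.08 ± 0.17), with edgeR adjusted p of 1.92e-05 and 2.62e-05. KIT stood at -0.06 ± 0.16 under TMM but at 0.96 (adjusted p = 8.79e-04) with library totals alone, where the median over all genes was 0.20 under TMM and 1.22 with library totals. ERBB3 stood at -0.51 ± 0.41 under TMM and 0.50 with library totals, and MGRN1 at -0.16 ± 0.45 and 0.90, and none of these passed. MGRN1 also changed sign between skin and liver, at -0.30 ± 0.34 under TMM and 0.66 with library totals, without passing. The FPKM levels above follow library totals.

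The comparison of albino with wild-type skin of the back asks whether the members differ in the pigmented body surface. Of the members, KIT was the one whose libraries did not overlap. It had 54.9, 72.3 and 72.3 CPM in albino skin, against 39.8, 38.2 and 39.4 CPM in wild-type skin, a log2 difference of 0.76 ± 0.20 (edgeR adjusted p = 0.187, unadjusted p = 0.00543). Every albino library was above every wild-type one, but the difference did not pass over all genes. DESeq2 gave 0.75 with an adjusted p of 0.0308 and the fit of all 18 libraries gave 0.76 with 0.0120. Both settings also called far more of all genes in skin than the main fit did, as counted in the closing section.

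Of 8 members tested in skin 0 passed and 2, KIT and ASIP, had an unadjusted p under 0.05. Of all genes tested 16 of 16921 passed, or 0.0946%, and the libraries of the 2 genotypes did not overlap for 19.8% of them, against 1 of 8 members. The share of called genes that were higher in albino skin was 62.5% under TMM and 52.2% with library totals. In bulk tissue, fewer cells of a type and less RNA per cell cannot be told apart.

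The sum of 14 melanin-bearing pigment cell markers was also higher in every albino skin library. It was 1498 to 1679 CPM in albino skin, against 370 to 589 CPM in wild-type skin, 13 of 14 had a positive difference, 1 passed, and 0 of the 14 were at 0. TYR, the first enzyme of melanin synthesis, was higher by 2.80 ± 0.27 (edgeR adjusted p = 0.0163), a call lost without 4 of the 6 libraries (adjusted p up to 0.102). PMEL, the fibril protein of melanosomes, stood at 2.57 ± 0.33 (adjusted p = 0.0569), SOX10 at 0.49 ± 0.28 and MITF at 0.20 ± 0.35, and these did not pass. Mast cells also carry KIT, and the 5 mast cell markers with a row, KIT among them, summed to 115 to 165 CPM in albino skin and 99.1 to 167 CPM in wild-type skin. Since KIT is a large part of that sum, it is no separate readout of mast cells. SRGN and FCER1G, the other abundant markers, stood at -0.25 ± 0.53 and -0.55 ± 0.34, and neither passed. Of 4 tested mast cell markers 2 had a positive difference, KIT among them. The part of either cell type in the KIT values was not tested.

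The ligand KITLG had 40.7, 67.7 and 52.0 CPM in albino skin, against 40.3, 91.7 and 43.4 CPM in wild-type skin, a log2 difference of -0.13 ± 0.37. Wild-type skin 2 was the highest of the 6, and the groups overlapped. The same library held 69.3 CPM of ERBB3, against 25.8 and 13.6 CPM in wild-type skin 1 and 3 and 24.3, 24.0 and 31.2 CPM in albino skin. The ERBB3 difference of -0.45 ± 0.54 turned to 0.43 without it, and neither value passed.

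MC1R had 0.979, 6.17 and 4.05 CPM in albino skin, against 9.08, 7.80 and 5.27 CPM in wild-type skin. The groups overlapped by 1 library, with albino skin 1 far below the rest at 29 counts, and the log2 difference was -0.98 ± 0.59 (edgeR adjusted p = 0.531). ASIP had 12, 119 and 94 counts in albino skin 1, 2 and 3, against 14, 4 and 24 counts in wild-type skin, which is 0.405, 2.93 and 2.40 CPM against 0.340, 0.103 and 0.780 CPM. Albino skin 2 and 3 were above all wild-type libraries and albino skin 1 lay among them, and the log2 difference was 2.24 ± 0.92 (adjusted p = 0.373). With 4 counts in wild-type skin 2, ASIP passed the count filter through albino skin alone.

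A second agouti gene lies next to ASIP. In the RefSeq table of assembly ASM4218655v1, LOC141113309, whose product is described as like agouti signaling protein, follows ASIP with 1 pseudogene between them and AHCY beyond. It was picked after its values were seen. It had 0, 157 and 1 counts in albino skin 1, 2 and 3 and 0 in wild-type skin. The labels do not say how reads that match both genes were assigned. With the counts of both summed, the skin difference was 2.99 ± 1.08 (edgeR adjusted p = 0.323).

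Albino skin 2 also held nearly all of the EDNRB in that group, at 7.20 CPM beside 0.169 and 0.0255 CPM in albino skin 1 and 3, against 0.364, 0.0258 and 1.14 CPM in wild-type skin. The log2 difference of 2.30 ± 1.86 turned to -2.38 without that library, and neither passed. Skeletal muscle markers summed to 230 CPM in albino skin 2, against 42.3 and 45.8 CPM in albino skin 1 and 3 and 17.9 to 31.9 CPM in wild-type skin, and their part in the EDNRB and ASIP-like counts was not tested.

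EDN3 was close to equal, with 7.02, 10.1 and 9.20 CPM in albino skin and 10.1, 7.91 and 7.74 CPM in wild-type skin (log2 difference 0.03 ± 0.25). MGRN1 had 6.72, 8.19 and 9.96 CPM in albino skin and 7.43, 9.92 and 4.23 CPM in wild-type skin (0.20 ± 0.35). Over the members, albino skin 1 was the lowest of its group for 6 of 8 genes and albino skin 2 the highest for 6 of 8. This order was not counted over all genes, so it is no result about the members.

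In liver, the pigment of amphibians sits in macrophages rather than in neural crest cells. Of the 14 melanin-bearing pigment cell markers 3, TYR, SLC24A5 and PAX3, had no count in the 6 libraries. The 14 summed to 11.9 to 26.7 CPM in albino liver and 16.6 to 19.7 CPM in wild-type liver. RAB27A, the most abundant, had 7.53 to 19.2 CPM in albino and 11.3 to 15.8 CPM in wild-type liver. MITF had 4.20 to 5.42 CPM in albino and 3.81 to 4.77 CPM in wild-type liver. EDNRB fell in albino liver. It had 31.8, 28.3 and 27.3 CPM in albino liver, against 67.3, 58.9 and 52.7 CPM in wild-type liver, a log2 difference of -1.03 ± 0.17 (edgeR adjusted p = 0.0145). The highest albino library was below the lowest wild-type one.

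EDNRB was 1 of 5 tested members to pass in liver and the one member whose groups did not overlap, beside 5.76% of 14990 genes that passed and 28.7% that did not overlap. The share of called genes that were higher in albino liver was 49.7% under TMM and 20.6% with library totals. The call was kept without 3 of the 6 libraries and lost without wild-type liver 2, albino liver 2 or albino liver 3, where the adjusted p was 0.0796, 0.0608 and 0.0599. It was also lost with wild-type liver 2 and 3 summed as 1 library (0.0575) and in the fit of all 18 libraries (0.581), where the difference was -1.01.

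The 2 other endothelin genes to pass in liver were both higher. EDNRA, the second endothelin receptor, was higher in albino liver, at 71.5 ± 9.4 CPM against 35.0 ± 8.8 CPM in wild-type liver (1.03 ± 0.22, edgeR adjusted p = 0.0340). With library totals it stood at 0.76 with an adjusted p of 0.0772, short of the threshold. ECE2, a protease that cuts endothelin precursors, was also higher, at 2.49 ± 0.71 CPM against 0.447 ± 0.123 CPM (2.47 ± 0.37, adjusted p = 0.0104). By FPKM, EDNRA and EDNRB stood at 6.98 ± 1.35 and 4.43 ± 0.74 in albino liver, against 4.12 ± 0.95 and 11.0 ± 1.2 in wild-type liver, so the receptor with the higher level was not the same in the 2 genotypes.

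Endothelial cells of vessels carry EDNRB in mammals, and the summed markers of the genotypes overlapped. The 11 endothelial markers summed to 197 to 241 CPM in albino liver and 189 to 244 CPM in wild-type liver, with 0 of 11 passing and a median log2 difference of 0.08, beside 0.00 for all genes. CLDN5, CDH5 and EGFL7, the most abundant of them, stood at 0.06, 0.11 and -0.09. Erythrocyte markers summed to 227 to 406 CPM in albino liver and 116 to 163 CPM in wild-type liver, and macrophage and granulocyte markers to 332 to 567 CPM in albino liver and 666 to 1285 CPM in wild-type liver. The part of endothelial cells and of these blood cells in the EDNRB values was not tested.

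KIT had 8.09, 9.51 and 9.88 CPM in albino liver and 8.73, 9.93 and 9.21 CPM in wild-type liver, a log2 difference of -0.02 ± 0.16. KITLG had 2.34, 3.84 and 2.43 CPM in albino liver and 2.16, 2.18 and 2.47 CPM in wild-type liver (0.34 ± 0.27). ERBB3 had 1.92, 2.97 and 3.26 CPM in albino liver and 6.21, 4.18 and 2.15 CPM in wild-type liver (-0.62 ± 0.39, edgeR adjusted p = 0.389). In each of these genes the groups overlapped, as they did for MGRN1, with 4.16, 4.01 and 4.51 CPM in albino and 4.73, 3.47 and 4.73 CPM in wild-type liver (-0.03 ± 0.21).

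**Figure D2:**
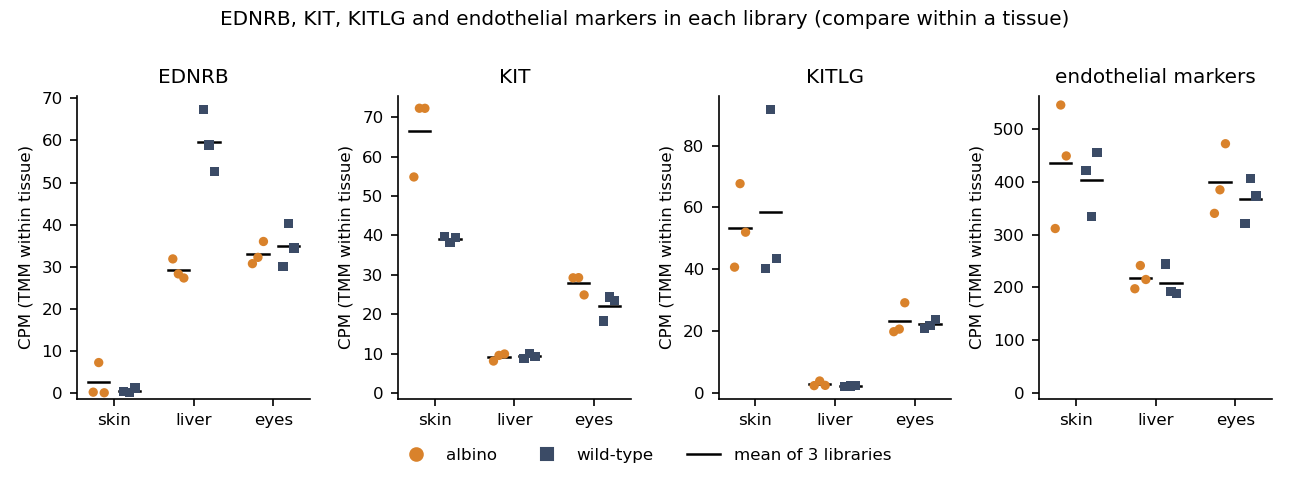
CPM scaled by TMM within each tissue (vertical axis, linear) for EDNRB, KIT and KITLG and for the sum of 11 endothelial markers, in the 3 libraries of each group, with the mean of 3 libraries as a bar. EDNRB is lower in the 3 albino liver libraries (27.3 to 31.8 CPM) than in the 3 wild-type ones (52.7 to 67.3 CPM). Endothelial markers overlap in liver, and KIT is higher in the 3 albino skin libraries than in the 3 wild-type ones.

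In eyes, which hold pigment cells of the iris and choroid beside the retinal pigment epithelium, MC1R fell. It had 9, 20 and 20 counts in albino eyes, against 59, 53 and 39 counts in wild-type eyes, or 0.234, 0.494 and 0.524 CPM against 1.60, 1.91 and 1.15 CPM. Every albino library was below every wild-type one, and the log2 difference was -1.89 ± 0.47 (edgeR adjusted p = 0.0428). MC1R was the 1 of 8 tested members to pass, a share near the 11.2% of 17817 genes. With 9 counts in albino eyes 1, under the minimum count of 10, the albino libraries alone would not have passed the count filter. MC1R thus needed the wild-type libraries, where it was higher, to be tested, so its call is given as a description.

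That call was close to the threshold. Without any single library the difference stayed between -2.08 and -1.61, but the adjusted p was 0.0710 to 0.125, and it was 0.0532 with library totals and 0.0900 in the fit of all 18 libraries. The call was also lost with the replicate number as a block. DESeq2 and limma on log2 FPKM kept the call. These settings also called more of all genes in eyes than the main fit did, as counted in the closing section.

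Markers of pigment cells did not all go one way in eyes. Those of melanin-bearing cells summed to 2419 to 2600 CPM in albino eyes, against 1750 to 2098 CPM in wild-type eyes, with 6 of 14 higher and 1 lower at the threshold and 0 at 0. The 1 lower was MITF, the transcription factor of melanocytes and retinal pigment epithelium, at -0.96 ± 0.22 (edgeR adjusted p = 0.0329), a call lost without 4 of the 6 libraries (adjusted p up to 0.110). SOX10 stood at -0.46 ± 0.22, TYR at 0.20 ± 0.18 and PMEL at 0.31 ± 0.16, none of them past the threshold. Iridophore and xanthophore markers, of the reflecting and yellow pigment cells, summed to 253 to 344 CPM in albino eyes, against 359 to 535 CPM in wild-type eyes, with no overlap. Of these 13 markers 0 were higher and 2 lower at the threshold and 0 were at 0, and their median log2 difference was -0.40. PNP, the most abundant, held much of the sum, at 126 to 210 CPM in albino and 223 to 393 CPM in wild-type eyes. It did not pass (-0.88 ± 0.27, edgeR adjusted p = 0.0766). SCARB1 and GMPS, the next most abundant, stood at 0.28 ± 0.15 and -0.00048 ± 0.17. Retinal pigment epithelium markers summed to 3422 to 4459 CPM in albino eyes and 2384 to 2713 CPM in wild-type eyes, and skeletal muscle markers to 4687 to 10256 CPM in albino eyes and 2091 to 5444 CPM in wild-type eyes. The part of these cells and tissues, and of the lens markers given above, in the MC1R values was not tested.

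KIT was the second member whose groups did not overlap in eyes, beside 36.6% of all genes. It had 29.2, 29.3 and 24.9 CPM in albino eyes, against 18.3, 24.3 and 23.4 CPM in wild-type eyes (0.34 ± 0.15, edgeR adjusted p = 0.178). With library totals the difference was 0.62 with an adjusted p of 0.0350, and limma on log2(FPKM + 1) gave 0.52 with 0.0393. The share of called genes that were higher in albino eyes was 45.6% under TMM and 78.6% with library totals, whose median over all genes was 0.28.

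ASIP had 72, 59 and 141 counts in albino eyes 1, 2 and 3, against 23, 45 and 59 counts in wild-type eyes. In CPM the groups overlapped, at 1.87, 1.46 and 3.69 against 0.624, 1.62 and 1.74, and the log2 difference of 0.82 ± 0.51 did not pass (edgeR adjusted p = 0.324). The neighbouring ASIP-like gene had 324, 138 and 328 counts in albino eyes and 33, 76 and 171 counts in wild-type eyes, and the sum of both genes differed by 1.12 ± 0.57 (adjusted p = 0.240).

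EDNRB in eyes did not pass, with 30.7, 32.2 and 36.0 CPM in albino eyes and 30.1, 40.2 and 34.5 CPM in wild-type eyes (-0.08 ± 0.14). Its sign depended on scaling. By FPKM the 3 albino libraries, at 5.74 to 6.38, were above the 3 wild-type ones, at 5.08 to 5.36, and library totals gave 0.20 with an adjusted p of 0.391.

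KITLG had 19.8, 20.6 and 29.2 CPM in albino eyes and 20.9, 21.9 and 23.7 CPM in wild-type eyes (0.07 ± 0.17). EDN3 had 4.03, 6.00 and 9.04 CPM in albino eyes and 7.90, 8.68 and 7.33 CPM in wild-type eyes (-0.33 ± 0.29). The groups overlapped for both ligands, and the albino libraries were the more scattered.

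ERBB3 had 8.48, 5.83 and 10.0 CPM in albino eyes and 4.91, 8.93 and 7.92 CPM in wild-type eyes (0.16 ± 0.29). MGRN1 had 13.0, 13.0 and 17.6 CPM in albino eyes and 15.8, 8.71 and 4.08 CPM in wild-type eyes (0.61 ± 0.45, edgeR adjusted p = 0.412), where the wild-type libraries spanned a ratio of 3.87.

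**Figure D3:**
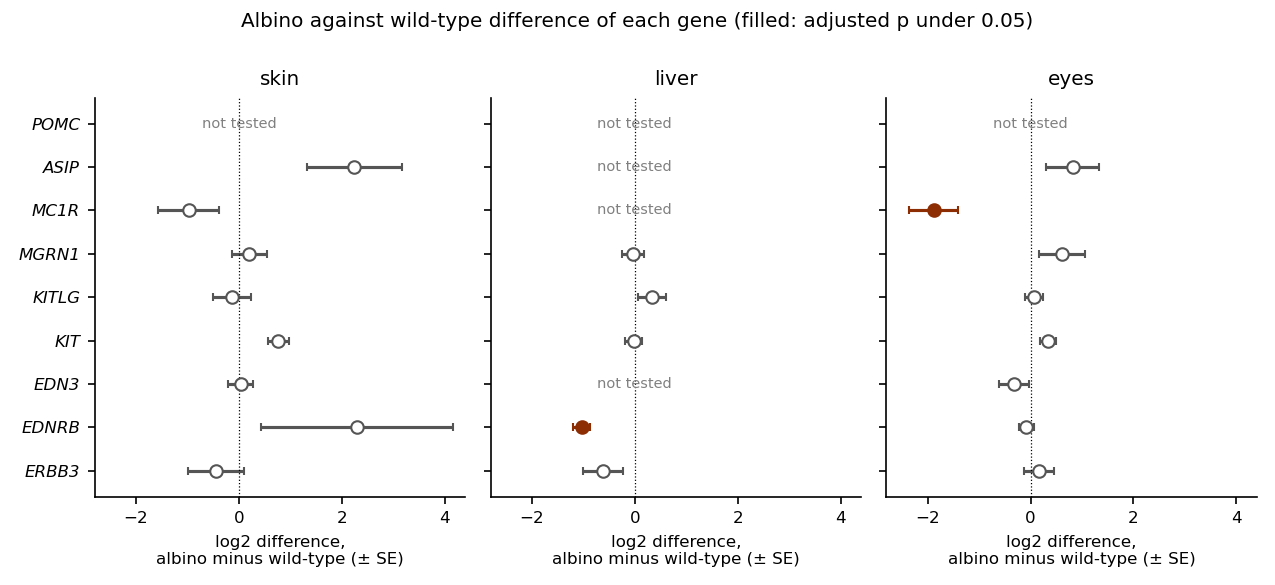
Log2 difference of albino minus wild-type (horizontal axis, with its SE) for each of the 9 genes in skin, liver and eyes, filled where the edgeR adjusted p was under 0.05. EDNRB in liver (-1.03) and MC1R in eyes (-1.89) are filled, the latter as a description. Genes with too few counts are marked as not tested, and ASIP and EDNRB in skin have the widest errors.

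The balance of the antagonist and its receptor was read as the ratio of ASIP to MC1R FPKM within a library, a value that no scaling of libraries changes. It was 0.420, 0.482 and 0.601 in albino skin, against 0.0380, 0.0134 and 0.151 in wild-type skin. In eyes it was 8.13, 3.00 and 7.16 in albino libraries, against 0.396, 0.863 and 1.54 in wild-type ones. In both tissues every albino library had a higher ratio than every wild-type library. In skin neither gene separated the genotypes by itself, and in eyes MC1R did. Single genes did not overlap for 19.8% of those tested in skin and 36.6% in eyes. The share over other pairs of genes was not computed, so the separation is a description.

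The geometric means were 0.495 in albino and 0.0425 in wild-type skin, a log2 difference of 3.54, and 5.59 in albino and 0.807 in wild-type eyes, a log2 difference of 2.79. A two-sided exact permutation test gave p = 0.1 in each tissue, the smallest value that 3 libraries against 3 allow, so the design could not pass a threshold of 0.05. Without any single library the log2 difference lay between 2.71 and 4.46 in skin and between 2.28 and 3.26 in eyes. The wild-type skin ratios rest on 14, 4 and 24 ASIP counts and the albino eye ratios on 9, 20 and 20 MC1R counts. These ratios were chosen as pairs of members that act on each other, and 7 of them by tissue were computed.

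**Figure D4:**
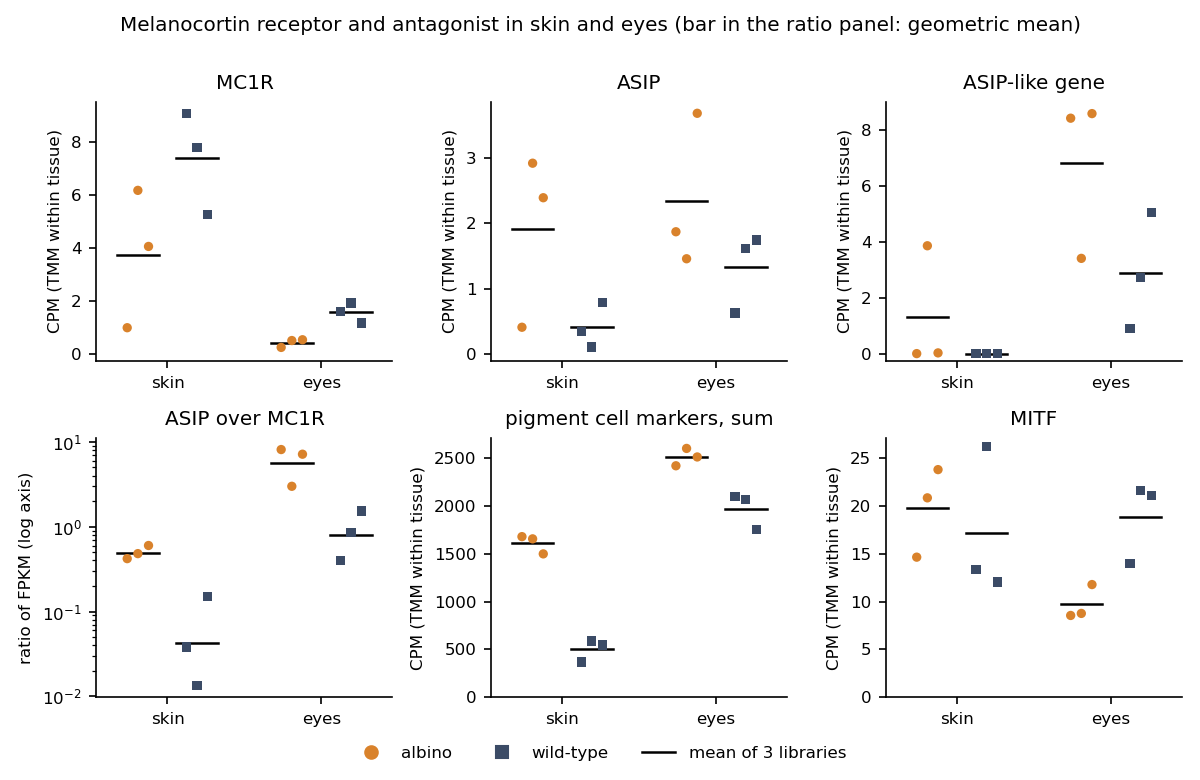
CPM scaled by TMM within each tissue (vertical axis, linear) for MC1R, ASIP, the ASIP-like gene LOC141113309, the sum of 14 pigment cell markers and MITF, and the ratio of ASIP to MC1R FPKM on a log axis, in the 3 libraries of each skin and eye group. Bars are means of 3 libraries, geometric in the ratio panel, and the ratio is higher in every albino library than in every wild-type library of the same tissue.

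The ratio of KITLG to KIT ran the other way in skin, at 0.356, 0.450 and 0.346 in albino libraries against 0.487, 1.15 and 0.529 in wild-type ones (two-sided exact permutation p = 0.1, the smallest possible). KIT separated the genotypes in skin by itself and KITLG did not, so this separation is a description too. In eyes the ratio was 0.325, 0.339 and 0.563 in albino libraries and 0.550, 0.431 and 0.487 in wild-type ones, with overlap (exact permutation p = 0.4). In liver it was 0.139, 0.194 and 0.118 in albino libraries and 0.119, 0.105 and 0.129 in wild-type ones (exact permutation p = 0.3). EDN3 over EDNRB was 0.221, 0.314 and 0.423 in albino eyes and 0.443, 0.364 and 0.359 in wild-type eyes (exact permutation p = 0.4), and in skin it ranged over 2.36 to 609 in albino and 11.5 to 518 in wild-type libraries, with receptor counts as low as 1 (exact permutation p = 1).

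Whether the genotype difference of a member changed between tissues was tested as an interaction. EDNRB differed between eyes and liver, by 0.92 ± 0.21 for the eye difference minus the liver difference (edgeR adjusted p = 0.0375), 1 of 8 members in the fit beside 3.42% of all genes. The call was kept under DESeq2 and with wild-type liver 3, albino liver 1 or wild-type eyes 2 left out and lost without each of the other 9 libraries, with an adjusted p of up to 0.0877. It was also lost with the replicate number as a block (adjusted p = 0.0862) and in the fit of all 18 libraries (0.829). Replicate numbers were taken to pair 2 groups where the correlation of their deviations was above 0.1 for every number. Albino eyes and liver met this (r 0.154 to 0.291). In wild-type eyes and liver r was 0.336, 0.247 and 0.0903 for numbers 1, 2 and 3, so number 3 alone fell short. No member passed between skin and liver, where 0.27% of genes did, or between skin and eyes, where 0.991% did. KIT stood at 0.78 ± 0.23 between skin and liver (adjusted p = 0.249) and at 0.42 ± 0.22 between skin and eyes (0.447), and the first of these was the 1 member with an unadjusted p under 0.05 in the 2 comparisons. DESeq2 called 0 members in either. With library totals KIT passed between eyes and liver, at 0.93 (adjusted p = 0.0319). The share of called genes with a positive interaction was 38.4% under TMM and 87.1% with library totals between eyes and liver, and 76.2% and 46.2% between skin and eyes. With liver, no difference is given for MC1R, ASIP and EDN3, whose liver counts were 0 or 1.

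Genes that work with each receptor were described by lists. Of 31 listed genes of the melanocortin pathway 29 had a row. In skin 0 of 22 tested genes passed and 4 had an unadjusted p under 0.05, beside 2199 of all 16921 genes, with a median log2 difference of -0.08 beside 0.01 for all genes, and in liver 1 of 17 passed, beside 5.76% of all genes, with a median of 0.15 beside 0.00. The liver gene was ATRN, a membrane protein that mice need for agouti to act, which fell to 27.8 ± 4.1 CPM in albino liver, against 52.7 ± 9.0 CPM in wild-type liver (-0.92 ± 0.20, edgeR adjusted p = 0.0323). In eyes 3 of 27 passed, each of them lower in albino, a share near the 11.2% of all genes, and the median was -0.12 beside 0.01.

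Those in eyes were PCSK1 and PCSK2, the convertases that cut POMC and other prohormones, and the adenylyl cyclase ADCY1. PCSK1 averaged 10.2 ± 1.3 CPM in albino eyes and 22.7 ± 5.1 CPM in wild-type eyes (-1.16 ± 0.20, edgeR adjusted p = 0.0147). PCSK2 averaged 97.1 ± 15.8 CPM in albino eyes and 180.2 ± 35.6 CPM in wild-type eyes (-0.89 ± 0.18, adjusted p = 0.0236). ADCY1 averaged 52.0 ± 14.6 CPM in albino eyes and 90.9 ± 0.6 CPM in wild-type eyes (-0.81 ± 0.20, adjusted p = 0.0428). All 3 are expressed in neurons in mammals, and POMC itself had 2 counts in the eye libraries. The part of neurons in these values was not tested.

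MC1R was one of 5 melanocortin receptors with a row. By FPKM wild-type skin held 3.78 ± 1.48 of MC1R, 1.83 ± 0.33 of MC5R, 0.634 ± 0.297 of MC3R, 0.572 ± 0.029 of MC2R and 1 count of MC4R. In albino skin the values were 1.96 ± 1.49 for MC1R, 1.33 ± 0.33 for MC5R, 0.885 ± 0.206 for MC3R and 0.259 ± 0.108 for MC2R. Liver, without MC1R, held MC5R at 1.36 ± 1.60 FPKM in albino and 4.26 ± 0.48 FPKM in wild-type libraries and MC3R at 0.579 ± 0.396 FPKM in albino and 1.39 ± 0.12 FPKM in wild-type libraries, neither past the threshold. In eyes MC5R averaged 0.397 ± 0.039 FPKM in albino and 0.0987 ± 0.0607 FPKM in wild-type libraries, the other way from MC1R. MC3R averaged 0.109 ± 0.021 FPKM in albino and 0.0806 ± 0.0603 FPKM in wild-type eyes, and neither passed there. MC3R to MC5R were named after their levels were seen. AGRP, the other antagonist of this family, had 1 count in the 18 libraries, in albino liver.

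In the KIT pathway list, which holds adaptors, kinases and other genes downstream of the receptor, 0 of 23 tested genes passed in skin, 0 of 22 in liver and 0 of 22 in eyes, and 4, 5 and 4 had an unadjusted p under 0.05 in edgeR's test. Over all genes that number was 2199 of 16921 in skin, 3378 of 14990 in liver and 5318 of 17817 in eyes. By this measure the list lay somewhat above all genes in skin, near them in liver and below them in eyes. Each share rests on only 4 or 5 list genes. The genotypes did not overlap for 9 of 23 list genes in skin, 6 of 22 in liver and 6 of 22 in eyes. Over all genes those shares were 19.8%, 28.7% and 36.6%. The list sum, which was not tested, was lower in every albino library than in every wild-type one of the same tissue. In skin it was 799 to 989 CPM in albino and 1004 to 1109 CPM in wild-type libraries. In liver it was 326 to 362 CPM in albino and 374 to 394 CPM in wild-type libraries. In eyes the groups nearly touched, at 764 to 809 CPM in albino and 812 to 889 CPM in wild-type libraries. The share over sums of other genes was not computed, so the separation is a description. The medians were -0.18, -0.18 and -0.15, beside 0.01, 0.00 and 0.01 for all genes, and 8 of 23, 4 of 22 and 5 of 22 differences were positive. SRC, a kinase that relays receptor signals, stood at -0.51 ± 0.15 in eyes (edgeR adjusted p = 0.0694), and DESeq2 called it there (adjusted p = 0.0264).

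In the endothelin list 15 of 17 genes had a row. In skin 0 of 15 passed and 1 had an unadjusted p under 0.05 (median 0.28 beside 0.01). In liver 2 of 12 passed, EDNRA and ECE2 given above, both higher in albino, beside 5.76% of all genes (median 0.42 beside 0.00). In eyes 1 of 15 was higher, the converting enzyme ECE1, at 164 ± 17 CPM in albino eyes and 106 ± 6 CPM in wild-type eyes (0.63 ± 0.11, edgeR adjusted p = 0.0175), and 1 was lower, the phospholipase PLCB1 (-0.73 ± 0.17, 0.0367), beside 11.2% of all genes, with a median of 0.08 beside 0.01.

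In the neuregulin list 12 of 15 genes had a row. ERBB2, the partner through which ERBB3 signals, fell to 12.9 ± 2.1 CPM in albino liver, against 25.7 ± 4.8 CPM in wild-type liver (-0.99 ± 0.20, edgeR adjusted p = 0.0276), as 1 of 9 tested genes beside 5.76% of all genes, and 0 of the 9 had a positive difference there (median -0.37 beside 0.00). The ligand NRG1 fell to 15.3 ± 0.02 CPM in albino eyes, against 23.4 ± 1.2 CPM in wild-type eyes (-0.61 ± 0.12, adjusted p = 0.0206), as 1 of 12 tested genes beside 11.2% of all genes (median -0.15 beside 0.01). In skin 0 of 10 passed and 1 had an unadjusted p under 0.05 (median -0.05 beside 0.01). Each of the 4 calls in liver from these lists was lost without at least 2 of the 6 libraries, and each of the 6 in eyes without at least 3. With library totals ADCY1, PLCB1 and NRG1 stood at -0.54, -0.48 and -0.34 in eyes and did not pass.

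The genes whose pattern over the 18 libraries was most like each member were found by Pearson's r of log2 CPM among 12737 genes, as a description. The libraries fall into 3 tissues, so r follows tissue differences foremost. For EDN3 these were ALX4, FBLN2 and FOXC1 (r = 0.998, 0.995 and 0.993), for KITLG TMEM164, POU3F1 and ATP13A5 (0.978, 0.978 and 0.977), and for EDNRB CCBE1, TMEM98 and NR2F1 (0.974, 0.960 and 0.950). For MC1R they were HPD, DLX2 and NFE2L3 (0.965, 0.962 and 0.958), for KIT MUC2, ATOH1 and ZMYM1 (0.958, 0.953 and 0.950), for ASIP JPH2, FAT1 and HSD17B2 (0.949, 0.946 and 0.945) and for ERBB3 TMEM79, FZD6 and DENND2C (0.928, 0.926 and 0.919). MGRN1 had no gene above 0.811.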

How the data were processed

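RNA sequencing libraries of total RNA from skin of the back, liver and eyes were compared, 3 per genotype and tissue. The authors deposited whole read counts per gene, made with HISAT2 and HTSeq per the submitters' processing notes. The labels and file headers state no version, genome build, strand setting or rule for multiply mapped reads. The deposited FPKM values equal the same counts per kilobase, with 1 length per gene, and per M counted reads. Symbols were those of the tables, and gene neighbours came from the RefSeq table of assembly ASM4218655v1.

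Within each pair of groups, genes were kept by filterByExpr (minimum count 10, minimum total 15), scaled by TMM and tested with edgeR 4.0.16 (robust glmQLFit and glmQLFTest, R 4.3.3), with Benjamini-Hochberg adjustment at 0.05. SE is the log2 difference over the square root of F. Interactions used the 4 groups of 2 tissues. Scripts were tested on simulated data. Alternatives were DESeq2 1.42.0, RLE scaling, library totals, no filter, a replicate block, 1 fit of the 18 libraries, limma 3.58.1 on log2(FPKM + 1) and log2(FPKM + 0.1), each library left out, and wild-type liver 2 and 3 summed as 1 library because they were the closest pair. Summing ASIP with its neighbour, and leaving libraries out of the ratios, were chosen after seeing the data.

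Same-numbered libraries deviated together between wild-type eyes and skin (r 0.326 to 0.485 over 16513 genes) and between tissues in albinos (r 0.144 to 0.445), but not between genotypes (r -0.239 to 0.0622), and the labels do not say what a number shares. With wild-type liver, r was 0.0631 to 0.379 for skin and 0.0903 to 0.336 for eyes, lowest for number 3 in both. Floors and fold bounds rest on 3 counts over a group and cover counting error only.

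The members and lists were chosen with earlier results of these data known. All members were named, with, from each pathway list and genotype comparison, up to 5 genes that passed or else the 2 of smallest p, plus TYR, PMEL, MITF and SOX10, and up to 3 abundant genes of a marker list. Of these, 1 gene is not reported here.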

Additional observations from a re-analysis of the deposited data

Results flagged for a closer look

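The EDNRB difference between genotypes was not the same in eyes as in liver. The interaction, the eye difference minus the liver difference, was 0.92 ± 0.21 on the log2 scale (edgeR's quasi-likelihood test, adjusted p = 0.0375), from -0.08 ± 0.14 in eyes and -1.03 ± 0.17 in liver. With library totals it was larger. It did not pass with the replicate block (adjusted p = 0.0862), in the fit of all 18 libraries (0.829) or without 9 of the 12 libraries left out in turn (0.0516 to 0.0877).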

How the results depend on the processing

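Over the alternatives, 903 of 998 recomputed differences of members kept their direction and their side of the threshold, 32 fell short of it, 10 came past it and 53 changed sign. A value of the same direction without an adjusted p was counted as keeping its side. The comparisons between wild-type tissues are included in these numbers.

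The count of all genes called in skin was 16, and became 757 with DESeq2, 45 with no filter, 27 with the replicate block, 729 in 1 fit of 18 libraries, 92 and 123 with limma on FPKM (pseudocount 1 and 0.1), and 0 to 51 with a library left out. In liver it was 864, 1853 with DESeq2, 147 with wild-type liver 2 and 3 summed and 134 to 1381 with a library left out. In eyes it was 1995, 3501 with DESeq2, 937 with the block, 877 in 1 fit, 3162 and 3112 with limma and 458 to 1634 with a library left out. Interactions went likewise: skin minus liver 49, against 381 (DESeq2), 175 (1 fit), 214 and 155 (limma) and 10 to 78 left out. Eyes minus liver gave 654, against 1704, 1816 (library totals), 3738 and 3101 (limma) and 270.0 to 887. Skin minus eyes gave 193, against 949, 91 (library totals), 306 (1 fit), 577 and 437 (limma) and 18 to 201.

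Members called in skin went to 1 (KIT) with DESeq2 and in 1 fit, against 0. In liver the 1 call became 0 in 1 fit, with the 2 libraries summed and, at 0 to 1, with a library left out. In eyes the 1 call became 0 with the block, in 1 fit and with any library left out (0 to 0), and 2 with limma (MC1R and KIT). Between eyes and liver the 1 call became 2 with library totals, 0 with the block and in 1 fit, 3 with limma and 0 to 1 left out.

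Signs changed for EDNRB in skin with the block (-0.36), EDN3 in skin with limma (-0.000312), MITF in liver with library totals and limma (-0.00424, -0.0019 and -0.0124) and KIT in liver in 1 fit (0.00623). EDNRB in eyes became 0.20, 0.17 and 0.20 with library totals and limma. With the same 3 settings MGRN1 became 0.66, 0.32 and 0.50 (wild-type skin against liver) and 0.90, 0.42 and 0.63 (eyes against liver), KIT 0.96, 0.72 and 0.92 and ERBB3 0.50, 0.21 and 0.50 (eyes against liver), and KITLG 0.30, 0.22 and 0.29 (eyes minus liver). MC1R became -0.33 (skin minus eyes, limma, pseudocount 1).

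Leaving out a library changed the sign of these differences, none of them past the threshold. In skin the ranges were -2.38 to 3.63 for EDNRB, -0.0765 to 0.17 for EDN3, -0.34 to 0.35 for KITLG, -0.84 to 0.43 for ERBB3, -0.0649 to 0.51 for MGRN1 and -0.0025 to 0.64 for MITF. In liver they were -0.0764 to 0.052 for KIT and -0.16 to 0.0418 for MGRN1, and in eyes -0.19 to 0.0256 for EDNRB, -0.0648 to 0.35 for ERBB3 and -0.13 to 0.16 for KITLG. In wild-type eyes against liver they were -0.70 to 0.25 for MGRN1 and -0.0935 to 0.10 for KIT, and against skin -0.43 to 0.52 for MGRN1. For skin minus liver they were -0.24 to 1.06 for ERBB3, -0.69 to 0.013 for KITLG, -0.0324 to 0.54 for MGRN1 and -1.37 to 4.67 for EDNRB, and for skin minus eyes -0.44 to 0.29 for KITLG, -1.01 to 0.27 for ERBB3 and -2.32 to 3.71 for EDNRB.

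Replicate numbers pair wild-type eyes and skin by the correlation of deviations, and there the block changed no member call (10724 genes against 10230). Between genotypes the numbers do not pair, and with the block MC1R in eyes had an adjusted p of 0.0905. They pair albino eyes and liver, and the EDNRB interaction had 0.0862 with the block. The causes were not tested. Low counts limit POMC, ASIP in wild-type skin, EDNRB in skin, MC1R in albino eyes (9, 20 and 20 counts) and MC1R, ASIP and EDN3 in liver.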
